A study of Homo sapiens with 6 samples.

Results

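The genes examined here were 40 members of the ATF4 pathway and the unfolded protein response, taken by name from the 26255 gene symbols for which expression was measured in MDA-MB-231 cells. MDA-MB-231 is a human breast cancer line without oestrogen receptor. The line had been infected with lentivirus carrying either a control hairpin RNA (shNT) or a hairpin against GPR81 (shGPR81), and infected cells were kept by puromycin selection. GPR81 is a cell surface receptor for lactate, encoded by HCAR1. RNA was sequenced from 3 shNT and 3 shGPR81 libraries, and nothing in the sample descriptions states that the 3 libraries of a group came from separate cultures. The p-values below therefore set group differences against the spread between these libraries, which may be technical. They need not hold for new cultures. Which of the hairpins against GPR81 the sequenced cells carried was not stated. An effect of the hairpin and other differences between the selected cells of the groups cannot be told apart here. All 40 members were listed in the table and all 40 passed the expression filter of 0.1 FPKM (reads scaled to transcript length and to the size of the library) in at least 3 of the 6 libraries.

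The unfolded protein response relieves the endoplasmic reticulum (ER) when unfolded proteins build up in it. The membrane sensors PERK (EIF2AK3), IRE1 (ERN1) and ATF6 start its branches, and PERK shares its target, the translation factor eIF2, with GCN2 (EIF2AK4), the kinase that responds to a shortage of amino acids. Phosphorylated eIF2 lowers general protein synthesis and favours translation of ATF4, a transcription factor that drives genes for amino acid synthesis, tRNA charging and stress signalling, whereas ATF6 and the IRE1 product XBP1 drive chaperones and the degradation of misfolded proteins. ATF4 and the eIF2 kinases are controlled largely at the level of protein, which was not measured here.

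HCAR1 was at 0.968, 1.02 and 1.36 FPKM in shNT replicates 1 to 3 and at 0.978, 0.891 and 0.396 FPKM in shGPR81 replicates 1 to 3. The groups overlapped, and the log2 fold change was -0.57 (adjusted p = 0.38 by limma, SE 0.31). The value was -0.22 without shGPR81 replicate 3 and -0.78 without shGPR81 replicate 1. Read numbers recovered from the FPKM were few, 37, 40 and 52 in shNT against 40, 36 and 16 in shGPR81. The confidence interval of the fold change, 0.406 to 1.11, was wide and did not exclude a larger fall. The paper reports significantly reduced GPR81 in its shGPR81 lines, by RT-qPCR and western blotting. These HCAR1 values are too imprecise to show or exclude such a reduction in the sequenced cells. The mesenchymal genes VIM, CD44, ZEB1 and AXL were present in every library, from 16.8 FPKM for the lowest value of ZEB1 upward. Of 6 luminal markers, ESR1, PGR and CDH1 were listed at 0 in all 6 libraries, while GATA3, EPCAM and KRT19 were detected. KRT19 differed between the groups (78.1 against 112 FPKM, adjusted p = 0.0450, limma). Of the basal markers, KRT5 was listed at 0 in every library and KRT14 in all but 1. TP63 was at 0.108 to 0.116 FPKM in shNT and at 0.282 to 0.409 FPKM in shGPR81, with groups that did not overlap (log2 fold change 1.05, adjusted p = 0.0575 by limma). The part of KRT19 and TP63 in the results below was not tested. Relative depths, read from the smallest steps between FPKM values, were between 1 and 1.07, so differences in depth between the libraries were small.

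Of the 40 members, GDF15 was the only one past both thresholds (fold change above 1.5, adjusted p under 0.05), and it was lower in shGPR81 cells. Over all 14349 tested genes 1.59% were called lower and 0.955% higher, so 1 lower and 0 higher among 40 was close to these shares. Without the threshold on the fold change, STC1 was added as higher, which gave 2 of 40 members where 5.13% of all tested genes passed. The groups did not overlap for 12 members, 6 higher and 6 lower in shGPR81 cells, a share of 30% beside 25.6% of all tested genes. An unadjusted p under 0.05 was reached by 9 of 40 members and by 19.5% of all tested genes. The median log2 fold change of the members was -0.021, beside 0.008 over all tested genes, and 17 members had a positive and 23 a negative value.

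The data also bounded the size of the differences. For 35 of the 40 members the 95% interval of the fold change lay within 1.5-fold in either direction, a share of 87.5%. The share was 69.8% over all tested genes and 84.6% over those that averaged 1 FPKM or more, as all members but ALDH1L2 did. The other members were GDF15, ERN1, VLDLR, CHAC1 and ALDH1L2. All of these but GDF15 were scarce transcripts, and their intervals reached past 1.5-fold on the lower side.

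**Figure D1:**
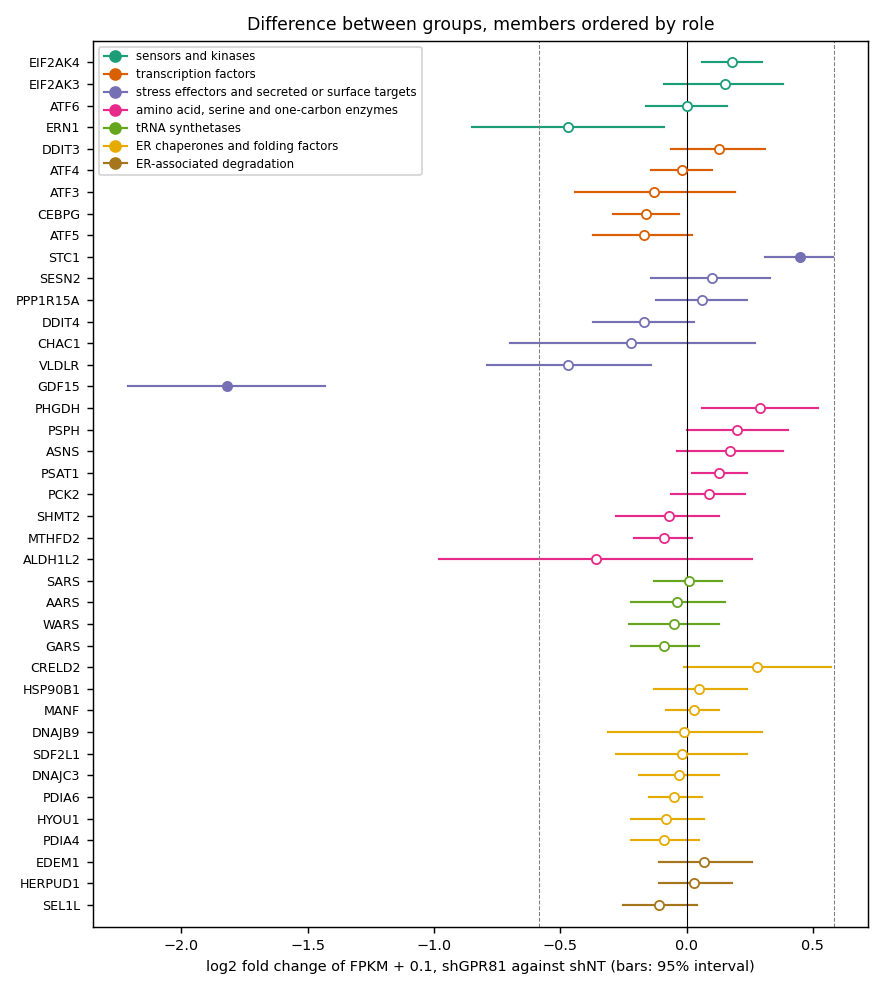
The log2 fold change of each member (x axis, FPKM + 0.1, shGPR81 against shNT) is drawn with its 95% interval, members grouped by role, with filled points for an adjusted p under 0.05 and dashed lines at 1.5-fold. GDF15 stands apart at -1.82 and STC1 is the only other filled point, at 0.45.

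GDF15 encodes a secreted member of the TGF-beta superfamily that is induced by cell stress, through ATF4 and DDIT3 among other factors, and that acts on appetite through the receptor GFRAL in the brainstem. Its locus spans positions 18485541 to 18499986 of chromosome 19 (GRCh37, plus strand). GDF15 was at 23.5, 34.2 and 34.2 FPKM in shNT replicates 1 to 3 and at 9.55, 7.19 and 8.77 FPKM in shGPR81 replicates 1 to 3. Every shGPR81 library was below the lowest shNT library, which was replicate 1, the lowest of its group by a wide margin. Read numbers recovered from the FPKM were 321, 480 and 468 in shNT against 140, 104 and 127 in shGPR81, so counting noise was small beside the difference. The means were 30.6 ± 6.20 FPKM (SD, n = 3) and 8.50 ± 1.21 FPKM (SD, n = 3). GDF15 was thus 3.54-fold lower in shGPR81 cells, a log2 fold change of -1.82 (adjusted p = 0.00171 by limma with Benjamini-Hochberg adjustment, SE 0.17). The exact permutation p (two-sided) was 0.1, which is the minimum for 3 against 3 libraries. By size of the fall, GDF15 ranked 49 among the 228 genes called lower, and 21 among the 148 of these that averaged 1 FPKM or more. The intronic microRNA gene MIR3189 within GDF15 was listed at 0 in every library. In bulk libraries, fewer cells with the transcript and less transcript per cell cannot be told apart.

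STC1, which encodes a secreted glycoprotein of the stanniocalcin family and is raised by hypoxia, went the other way. Its locus spans positions 23699442 to 23712319 of chromosome 8 (GRCh37, minus strand). STC1 was at 15.5, 15.9 and 17.0 FPKM in the shNT libraries and at 21.6, 22.5 and 22.0 FPKM in the shGPR81 libraries. The groups were well separated, and the libraries within each group lay close together. The rise was 1.36-fold (95% interval 1.24 to 1.5), a log2 fold change of 0.45 (adjusted p = 0.00616 by limma, SE 0.06), below the threshold of 1.5-fold.

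**Figure D2:**
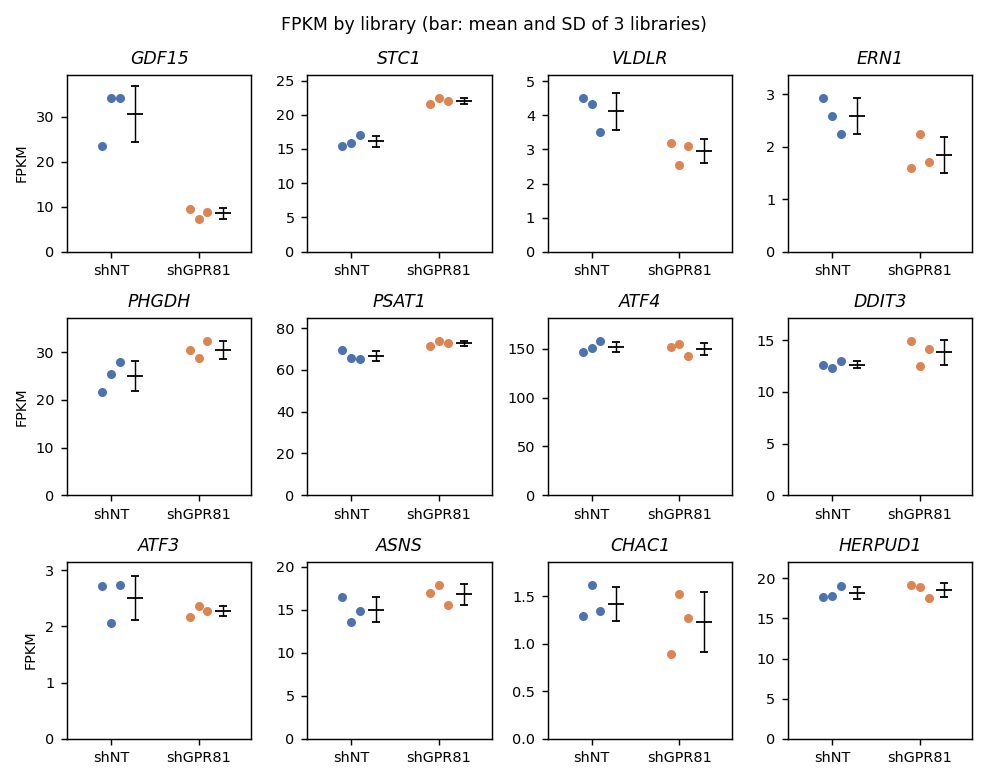
FPKM in each library (y axis, from 0) is plotted for members named in the panel titles, with points for the 3 shNT and 3 shGPR81 libraries and bars for the mean and SD. The groups are separated for GDF15, STC1, VLDLR, ERN1, PHGDH and PSAT1, and they overlap for ATF4, DDIT3, ATF3, ASNS, CHAC1 and HERPUD1.

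Other stress effectors did not pass the test. VLDLR, a lipoprotein receptor whose transcription ATF4 raises, was at 4.52, 4.34 and 3.50 FPKM in shNT and at 3.20, 2.54 and 3.11 FPKM in shGPR81. All 3 shGPR81 libraries lay below all 3 shNT libraries, with a log2 fold change of -0.47 (adjusted p = 0.112 by limma, SE 0.14) and shNT replicate 3 close to the other group. PPP1R15A, the eIF2 phosphatase subunit that closes the feedback loop, was at 35.5 ± 3.16 and 37 ± 1.72 FPKM (SD, n = 3). CHAC1, a glutathione-degrading enzyme and a sensitive ATF4 target, was at 1.29, 1.62 and 1.34 FPKM in shNT and at 0.890, 1.52 and 1.27 FPKM in shGPR81. Its groups overlapped, and the interval of its log2 fold change, -0.70 to 0.27, was wide. SESN2 and DDIT4, which both restrain mTORC1, had log2 fold changes of 0.10 (95% interval -0.14 to 0.33) and -0.17 (-0.37 to 0.03). DDIT4 was among the most abundant members, at 129 ± 14.6 FPKM in shNT and 114 ± 4.22 FPKM in shGPR81 (SD, n = 3). Of the 7 members in this role, 1 (GDF15) was called lower and 0 higher, where 1.59% and 0.955% of all tested genes were. Separated groups were seen in 3 of the 7, beside 25.6% of all tested genes. An unadjusted p under 0.05 (limma) was reached by 3, beside 19.5%.

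Among the sensors and kinases, 0 of 4 had an adjusted p under 0.05 and 2 had an unadjusted p under 0.05 (limma), which 19.5% of all tested genes had. EIF2AK4 was at 20.1, 19.5 and 20 FPKM in shNT and at 22.7, 21.9 and 22.8 FPKM in shGPR81. Its groups did not overlap, but the difference was small, 1.13-fold (95% interval 1.04 to 1.23, adjusted p = 0.106). ERN1 was at 2.94, 2.59 and 2.25 FPKM in shNT and at 1.6, 2.24 and 1.71 FPKM in shGPR81. The highest shGPR81 value was just below the lowest shNT value, and the log2 fold change was -0.47 (adjusted p = 0.163, SE 0.16). Recovered reads were 154, 139 and 118 against 90, 124 and 95. EIF2AK3 was at 3.28, 3.39 and 3.18 FPKM and at 3.96, 3.69 and 3.32 FPKM, with 1 shGPR81 library inside the shNT range (log2 fold change 0.15, 95% interval -0.09 to 0.38). ATF6 was at 9.57, 9.33 and 8.89 FPKM in shNT and at 8.81, 9.44 and 9.51 FPKM in shGPR81. For ATF6 the interval of the fold change was 0.894 to 1.12, so a difference above 1.5-fold lay outside it.

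The transcription factors of the pathway also differed by little. ATF4 was at 147, 151 and 158 FPKM in shNT and at 152, 155 and 143 FPKM in shGPR81, and the groups overlapped throughout. Its log2 fold change was -0.02 (SE 0.05), with an interval of the fold change from 0.907 to 1.07. DDIT3, which encodes the factor CHOP that ATF4 induces under lasting stress, was at 12.6, 12.3 and 13 FPKM in shNT and at 14.9, 12.5 and 14.1 FPKM in shGPR81. Its shGPR81 replicate 2 lay inside the shNT range, and the log2 fold change was 0.13 (adjusted p = 0.450, SE 0.08). CEBPG, the C/EBP protein that pairs with ATF4 on DNA, was at 18.2, 16.9 and 17.6 FPKM in shNT and at 15.9, 15.7 and 15.6 FPKM in shGPR81. The groups of CEBPG did not overlap, and its log2 fold change was -0.16 (adjusted p = 0.177, SE 0.06). ATF3 and ATF5, bZIP factors that act downstream of ATF4, had log2 fold changes of -0.13 (95% interval -0.44 to 0.19) and -0.17 (-0.37 to 0.02). None of the 5 factors had an adjusted p under 0.05, and 1, CEBPG, had an unadjusted p under 0.05 (limma), close to the 19.5% of all tested genes.

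ATF4 and C/EBP proteins bind as pairs to the C/EBP-ATF response element, whose core was searched as TGATGNAAN on both strands of the RefSeq promoters (GRCh38.p14, from 250 bases before to 50 bases after the start of the transcript). RefSeq promoters were matched for 36 of the 40 members, of which 11 had several starts. The core was found in 7 of the 36, ATF3, CEBPG, CHAC1, ASNS, AARS, GARS and HERPUD1, and in 3.63% of all 34796 promoters. A member counted when any of its promoters held the core, whereas the share is per promoter, so the units differ. Windows from 5 of these members are shown so that their values can be read beside the element. Capitals mark the match, in the direction of the gene, so that a core on the other strand reads as its reverse complement.
ASNS (chr7:97872459-97872485, minus strand): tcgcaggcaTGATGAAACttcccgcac
CEBPG (chr19:33374062-33374088, plus strand): cgcggcgtcTGATGCAACctgccggca
CHAC1 (chr15:40953252-40953278, plus strand): tcccctgccGTTGCATCActcctgcca
AARS (chr16:70289677-70289703, minus strand): tttctcgcaGTTGCATCAgccaagtta
HERPUD1 (chr16:56931956-56931982, plus strand): acgcggcggGTTGCATCAgcccgtgcc

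The 7 members with this core had a median log2 fold change of -0.09 and a range from -0.22 to 0.17, with 5 negative and 2 positive values. None had an adjusted p under 0.05, beside 5.13% of all tested genes, and the lowest adjusted p was 0.177 (limma). No promoter window of GDF15 held the core, which says only that these letters are not within that window. A match is a description of sequence and not evidence of binding in these cells.

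Of the 8 amino acid, serine and one-carbon enzymes, 6 had separated groups, beside 25.6% of all tested genes. In shGPR81 cells 4 of these were higher and 2, MTHFD2 and ALDH1L2, were lower. None of the 8 had an adjusted p under 0.05, and 3 had an unadjusted p under 0.05 (limma), beside 19.5% of all tested genes. PHGDH, PSAT1 and PSPH catalyse the successive steps from a glycolytic intermediate to serine. PHGDH was at 21.6, 25.4 and 28 FPKM in shNT and at 30.4, 28.7 and 32.3 FPKM in shGPR81. PSAT1 was at 69.3, 65.5 and 65.0 FPKM in shNT and at 71.3, 73.7 and 73.0 FPKM in shGPR81. PSPH was at 13.5, 12 and 14 FPKM in shNT and at 16.4, 14.3 and 14.8 FPKM in shGPR81. All 3 genes were thus higher in every shGPR81 library than in every shNT library, with only a small gap between the groups for PHGDH and PSPH. The log2 fold changes were 0.29 (adjusted p = 0.161, SE 0.10) for PHGDH, 0.13 (adjusted p = 0.195, SE 0.05) for PSAT1 and 0.20 (adjusted p = 0.246, SE 0.08) for PSPH. The intervals of the fold change reached at most 1.43, 1.18 and 1.32. For each of the 3 the exact permutation p was 0.1, the minimum of this design.

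SHMT2, MTHFD2 and ALDH1L2 belong to the mitochondrial folate pathway that uses serine. SHMT2 was at 94.5 ± 10.8 and 89.5 ± 4.85 FPKM (SD, n = 3). MTHFD2 was at 32.5, 33.4 and 32.0 FPKM in shNT and at 30.1, 30.9 and 30.7 FPKM in shGPR81, slightly lower in every shGPR81 library (log2 fold change -0.09, adjusted p = 0.339, SE 0.05). ALDH1L2, the scarcest member, was at 0.179, 0.155 and 0.169 FPKM in shNT and at 0.111, 0.0847 and 0.132 FPKM in shGPR81. These values rest on only 18, 16 and 17 reads and 12, 9 and 14 reads, and although the groups did not overlap the adjusted p was 0.534. PCK2, the mitochondrial phosphoenolpyruvate carboxykinase, was at 7.98, 7.75 and 7.87 FPKM in shNT and at 8.20, 8.33 and 8.52 FPKM in shGPR81, higher by 1.06-fold (adjusted p = 0.541). ASNS, asparagine synthetase, was at 16.5, 13.6 and 14.8 FPKM in shNT and at 16.9, 17.9 and 15.5 FPKM in shGPR81. Its groups overlapped (log2 fold change 0.17, 95% interval -0.04 to 0.38, adjusted p = 0.376).

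The tRNA synthetases AARS, GARS, SARS and WARS, which charge tRNA with alanine, glycine, serine and tryptophan, differed little between the groups. Their log2 fold changes were between -0.09 and 0.01, and the intervals of all 4 lay within 1.5-fold. An adjusted or an unadjusted p under 0.05 (limma) was reached by 0 of 4, beside 5.13% and 19.5% of all tested genes. Among 16 other synthetases, from the further list below, 14 had a negative log2 fold change. Separated groups were seen in 5 of the 16, all lower in shGPR81, beside 25.6% of all tested genes. AARS was at 45.8, 51.1 and 54.0 FPKM in shNT replicates 1 to 3 and at 45.6, 49.2 and 52.3 FPKM in shGPR81 replicates 1 to 3. WARS was at 62.4, 70.8 and 72.6 FPKM in shNT and at 63.3, 64.0 and 71.3 FPKM in shGPR81. In both genes, and in SARS, replicate 1 was the lowest of its group on both sides. The median of the 4 genes relative to the shNT mean was -0.096, 0.022 and 0.081 in the shNT libraries and -0.126, -0.049 and 0.059 in the shGPR81 libraries, on the log2 scale. In these genes the libraries of 1 group thus differed by more than the groups did.

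**Figure D3:**
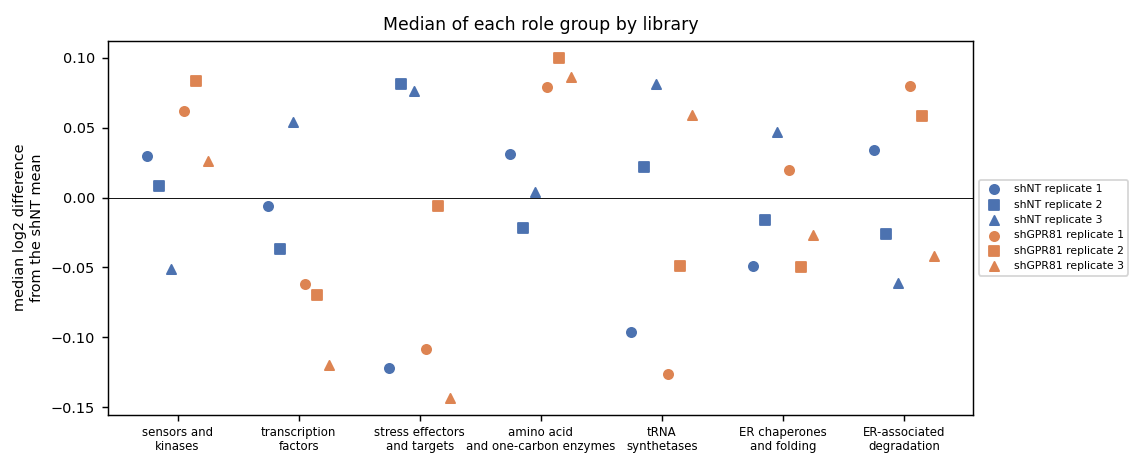
The median log2 difference from the shNT mean over the members of each role (y axis) is plotted for each of the 6 libraries, coloured by group and shaped by replicate number. The groups separate for the amino acid, serine and one-carbon enzymes (0.079 to 0.100 in shGPR81, at most 0.031 in shNT). They also separate for the transcription factors, of which 1 of 5 (CEBPG) had separated groups, and overlap in the other 5 roles. How often medians of such small sets separate was not tested.

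Chaperones and folding factors of the ER are induced through another kind of sequence, the ER stress response element, read by ATF6 and XBP1. It was searched as CCAAT and CCACG with 9 bases between them (ERSE), as ATTGG and CCACG with 1 base between them (ERSE-II), and together with the UPR element core TGACGTGG, which ends in letters that an ERSE-II on the other strand can share. ERSE was found in 3 of the 36 matched members and in 0.0776% of all promoters, ERSE-II in 3 members and in 0.0546% of all promoters, and the UPR element in 1 member, HYOU1, and in 0.733% of all promoters. As above, a member counted when any of its promoters held the element, whereas the shares are per promoter. Windows are shown for the 6 members with an ERSE or ERSE-II. HERPUD1 holds an ERSE-II beside the ATF4 core shown above.
HSP90B1 (chr12:103930212-103930238, plus strand): ctgaCCAATCGGAAGGAGCCACGcttc
PDIA6 (chr2:10812849-10812875, minus strand): cggaCCAATGAGCCGCAGCCACGgctt
CRELD2 (chr22:49918550-49918576, plus strand): ctctCGTGGCGAACTCGGATTGGgcca
HYOU1 (chr11:119057266-119057292, minus strand): gcctgggaCGTGGTCCAATgagtacgc
SDF2L1 (chr22:21642106-21642132, plus strand): ctcggaagCGTGGACCAATcaaaaccc
HERPUD1 (chr16:56932017-56932043, plus strand): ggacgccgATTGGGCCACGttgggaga

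These 6 members had a median log2 fold change of 0.00 and a range from -0.08 to 0.28, with 3 positive and 3 negative values and a lowest adjusted p of 0.279 (limma). CRELD2, a secreted ER stress protein, was at the upper end, at 10.6, 13.6 and 14.4 FPKM in shNT and at 16, 13.9 and 16.7 FPKM in shGPR81. Its groups overlapped through shGPR81 replicate 2, and shNT replicate 1 was low. HSP90B1, the ER chaperone GRP94, was the most abundant member, at 488, 425 and 401 FPKM in shNT and at 466, 458 and 435 FPKM in shGPR81. Its shGPR81 libraries lay inside the shNT range (log2 fold change 0.05, 95% interval -0.13 to 0.24).

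The whole set of 9 chaperones and folding factors had a median log2 fold change of -0.023. Of these, 0 had an adjusted or an unadjusted p under 0.05 (limma) and 0 had separated groups. Over all tested genes the shares were 5.13%, 19.5% and 25.6%. Among 21 other ER folding genes, from the further list below, 9 had separated groups (5 higher and 4 lower in shGPR81). An unadjusted p under 0.05 (limma) was reached by 4 of the 21. The protein disulfide isomerases PDIA4 and PDIA6 were at 169 ± 9.43 and 262 ± 8.66 FPKM in shNT and at 159 ± 5.86 and 254 ± 0.655 FPKM in shGPR81 (SD, n = 3). HYOU1 and MANF, an ER chaperone and an ER stress-induced secreted factor, had fold changes of 0.948 (95% interval 0.858 to 1.05) and 1.02 (0.944 to 1.10). SDF2L1 was at 24.1 ± 3.61 and 23.6 ± 1.89 FPKM (SD, n = 3). The co-chaperones DNAJB9 and DNAJC3 had log2 fold changes of -0.01 (95% interval -0.31 to 0.30) and -0.03 (-0.19 to 0.13). DNAJB9, a target of the IRE1 branch, was at 6.83, 4.77 and 5.32 FPKM in shGPR81, a wider spread than the 5.41, 5.65 and 5.75 FPKM in shNT.

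Of the 3 members that serve ER-associated degradation, 0 had an adjusted or an unadjusted p under 0.05 (limma). Over all tested genes 5.13% and 19.5% did, so 0 of 3 says little. HERPUD1, a membrane protein of the degradation complex, was at 17.7, 17.8 and 19 FPKM in shNT and at 19.2, 18.9 and 17.6 FPKM in shGPR81. SEL1L, the partner of the ubiquitin ligase HRD1, had a log2 fold change of -0.11 (95% interval -0.25 to 0.04), and EDEM1, which guides misfolded glycoproteins to degradation, one of 0.07 (-0.11 to 0.26). All 3 intervals lay within 1.5-fold.

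Members differed far more in level than between the groups. Mean FPKM over the 6 libraries, which is scaled to transcript length, ran from 0.139 for ALDH1L2 to 445 for HSP90B1. PDIA6 (258 FPKM), PDIA4 (164 FPKM) and ATF4 (151 FPKM) followed HSP90B1, and the ranges of PDIA4 and ATF4 over the libraries overlapped. The scarcest members after ALDH1L2 were CHAC1 (1.32 FPKM), ERN1 (2.22 FPKM) and ATF3 (2.39 FPKM), and the ranges of ERN1 and ATF3 overlapped. The fall of GDF15 changed its place in this order, from among members such as PPP1R15A in shNT cells to among members such as PCK2 in shGPR81 cells. The median SD within groups was 0.10 on the log2 scale for the members, beside 0.11 for all tested genes that averaged 1 FPKM or more.

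**Figure D4:**
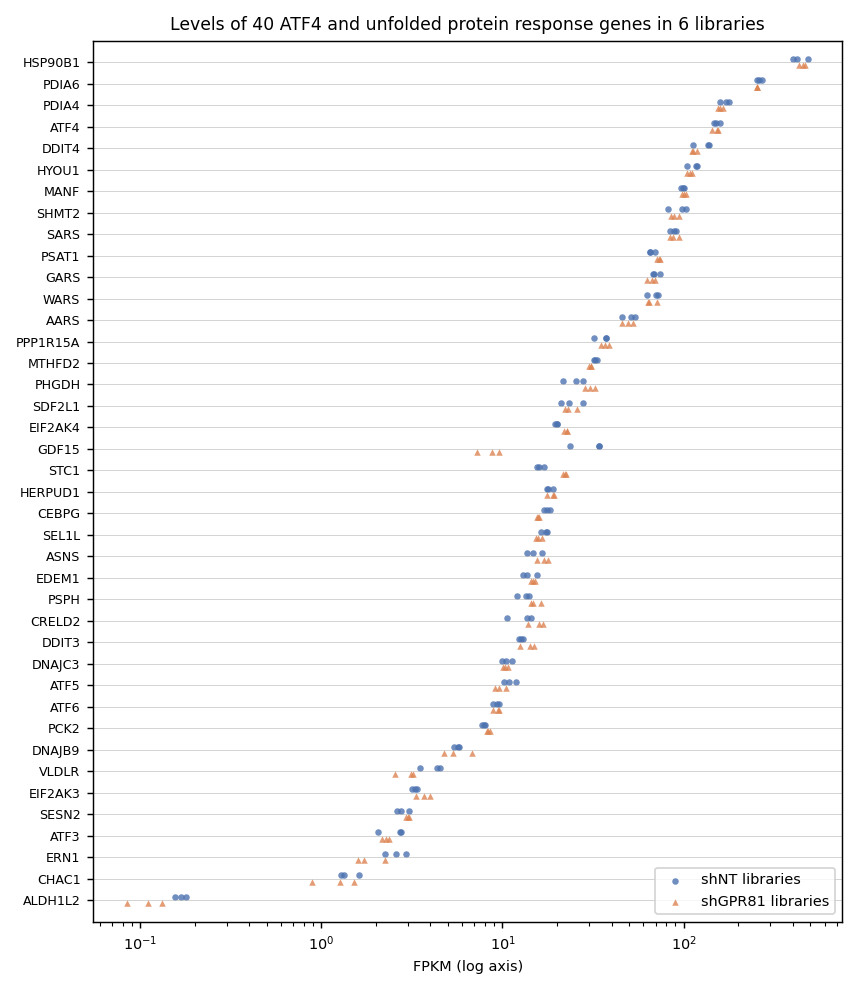
FPKM of the 40 members (x axis, log scale) is plotted for the 3 shNT (circles) and 3 shGPR81 libraries (triangles), ordered by mean level from 0.139 to 445 FPKM. Circles and triangles lie close together for most members, and GDF15 shows the widest gap.

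Further genes of the pathway came from a list of 94 genes found in the table, of which 93 were tested. TRIB3 and SLC1A4 were called lower and 0 were called higher, where 1.59% and 0.955% of all tested genes were. The median log2 fold change of the list was -0.048, and 72% of its tested genes had a negative value, beside 48.1% of all tested genes. TRIB3, a pseudokinase that is induced by ATF4 and DDIT3 and restrains ATF4, was at 12.7, 13.6 and 16 FPKM in shNT and at 8.47, 8.77 and 8.50 FPKM in shGPR81, a log2 fold change of -0.70 (adjusted p = 0.00673 by limma, SE 0.09). TRIB3 lies on chromosome 20, where the median of the 268 genes that averaged 5 FPKM or more was -0.40 and 258 had a negative value. The part of this in the fall of TRIB3 was not tested. The other genes of the list on that chromosome were EIF2S2, CEBPB and EDEM2, with log2 fold changes of -0.38, -0.31 and -0.37. None of the 40 members lies on chromosome 20. SLC1A4, a neutral amino acid transporter that carries serine and alanine, was at 5.43, 6.24 and 7.49 FPKM in shNT and at 3.57, 3.26 and 3.56 FPKM in shGPR81. Its log2 fold change was -0.85 (adjusted p = 0.0101 by limma, SE 0.13), and its adjusted p was 0.0542, 0.0521 and 0.0558 without shNT replicate 2, shGPR81 replicate 1 and shGPR81 replicate 2. Without the threshold on the fold change, EIF2S2, a subunit of eIF2, was lower (adjusted p = 0.00390) and the prolyl isomerase FKBP7 higher, with a log2 fold change of 0.39 (adjusted p = 0.0221, SE 0.07). HSPA5, the central ER chaperone BiP, was at 227, 234 and 237 FPKM in shNT and at 238, 240 and 250 FPKM in shGPR81, a log2 fold change of 0.06 (adjusted p = 0.546, SE 0.05). XBP1 had a log2 fold change of -0.09 (adjusted p = 0.662, SE 0.09), which counts spliced and unspliced transcripts together.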

How the data were processed

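RNA-seq libraries (TruSeq stranded mRNA, single-end reads of 75 bases) of 3 shNT and 3 shGPR81 samples were mapped by the authors with TopHat 2.0.13, Bowtie 2 2.2.3 and SAMtools 0.1.19. The paper names the human genome hg19 and the deposited notes the mouse genome mm10. The gene symbols are human. The deposited values are FPKM, with Cuffnorm 2.2.1 named in the submitters' notes, and the annotation, filters and strand setting were not given in the sources used here. Reads of genes that overlap on opposite strands, such as ATF5 and NUP62, CRELD2 and ALG12 or DDIT3 and MARS, may therefore be shared. MARS averaged 69.9 FPKM and DDIT3 13.3 FPKM, and the part of shared reads in the values of DDIT3 was not tested.

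The test was limma 3.58.1 (lmFit, eBayes with trend; R 4.3.3) on log2(FPKM + 0.1). Genes entered it when 3 or more libraries reached 0.1 FPKM, which left 14349, and p-values were adjusted over these by Benjamini-Hochberg. A call needed a fold change above 1.5 besides an adjusted p under 0.05, as in the paper. Fold changes are on the scale of FPKM + 0.1 and understate those of scarce genes. The script was tested on simulated data with changes well above the fold threshold, placed in genes that were not scarce. That test does not cover differences near 1.5-fold or scarce genes. Read numbers came from the common step of a gene's FPKM values across libraries (tolerance 0.02 reads), found for 7715 of 15931 genes. Of 6604 with an annotated transcript length, 547 were dropped because they implied over 15 reads per kb and FPKM, a limit set after the data were seen, and genes without a length were not used. The rest are lower limits where the true numbers share a factor. MIR6723 made up 28.1% to 36.2% of the FPKM of a library, so scaling was varied. The alternatives were other pseudocounts and filters, median centring, quantile normalization, eBayes without trend, treat, a replicate block and leaving out each library. The 40 members and the lists were chosen with earlier results of these data known. All members are named, and values in every library are given for those with an unadjusted p under 0.05 or separated groups, for ATF4, DDIT3, ATF6, ERN1 and EIF2AK3, and for other members where they help. Called genes of the further list are named, and others of it were picked after their values were seen. Positions are from GENCODE 44 mapped to GRCh37, and promoters are from RefSeq (GRCh38.p14).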

Additional observations from a re-analysis of the deposited data

How the results depend on the processing

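GDF15 was called under all 15 alternatives, with a log2 fold change of -2.0 to -1.71, and no other member was called under any. STC1 kept an adjusted p under 0.05 under each alternative that tested a difference from 0 (0.00509 to 0.0440), and DDIT4 had one without shNT replicate 1 (0.0187). The median of the members lay between -0.037 and 0.000. With each library left out in turn, 121 to 256 genes were called lower and 65 to 152 higher, and of the further pathway genes 1 to 2 lower and 0 to 1 higher (SLC7A11, without shNT replicate 1). At least 1 of these counts moved by over 1.5 times without shNT replicate 2 (121 lower, 81 higher) and without shGPR81 replicates 1 (133, 65), 2 (135, 66) and 3 (169, 85). A pseudocount of 1 FPKM gave 142 lower and 75 higher genes. The treat test against 1.5-fold gave 46 and 9, and 0 further pathway genes lower. With the replicate number as a replicate block, 197 genes were lower and 115 higher, and the calls among the members did not change. The deviations of same-numbered libraries correlated at 0.12, 0.0223 and 0.00577, beside -0.103 to 0.0834 for differently numbered ones. With 3 libraries per group these correlations cannot decide whether the numbers pair the libraries. Small values changed sign without single libraries, with ranges of -0.03 to 0.03 for ATF6, -0.04 to 0.01 for ATF4, -0.01 to 0.10 for PPP1R15A, -0.10 to 0.02 for AARS, -0.04 to 0.04 for SARS, -0.01 to 0.13 for HSP90B1, -0.12 to 0.09 for SDF2L1, -0.15 to 0.10 for DNAJB9 and -0.07 to 0.02 for DNAJC3. SARS was at -0.00 under quantile normalization. The cause of these changes was not tested. ALDH1L2 rests on at most 18 reads in a library, which limits what can be said of it.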
